A study of Aspergillus nidulans with 4 samples.

Results

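Chitin synthases are the membrane enzymes that build chitin, the N-acetylglucosamine polymer of the fungal cell wall, and 8 of the 10930 genes in the tables of this Aspergillus nidulans series were followed here. The members were listed by identifier from their annotation as chitin synthases: AN4566 (class I), AN7032 (class II), AN2523 (class III), AN1555 (class IV), AN6318 (class V), AN6317 (class VI), AN1046 (putative class VII) and AN4367 (putative chitin synthase III, with no class named). All 8 were found and all 8 had a test in the authors' deposited table. Their RNA was compared between strain AN1404, which lacks mpkA, and its parental strain AN1405, with 2 libraries for each. Both strains were grown as mycelium in rich, low-pH medium without an added stress and harvested late in exponential growth. The labels name no allele besides the loss of mpkA and no treatment, and do not say how many transformants stand behind a strain.

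MpkA is the MAP kinase at the end of the cell wall integrity cascade, which in fungi signals damage at the cell surface and adjusts wall synthesis. Filamentous fungi carry several classes of chitin synthase, each extending chitin chains from UDP-N-acetylglucosamine at the plasma membrane. In Saccharomyces cerevisiae the class I enzyme Chs1 acts in repair at cell separation, the class II enzyme Chs2 builds the primary septum and the class IV enzyme Chs3 makes most of the wall chitin. Class III enzymes and classes V and VI, which carry a myosin motor-like domain, belong to filamentous fungi and act mainly at the growing hyphal tip and at septa. RefSeq and the literature on this species letter the chs genes differently, so identifiers and classes are used throughout.

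The libraries, called a and b within each strain, held 31609185 to 34871842 reads on genes. The reads per library were recovered from the authors' means and carry no replicate number. The labels do not say whether the libraries of a strain came from separate cultures, so p-values measure only how far these libraries differ, and that difference may be technical. That spread was narrow, with a common coefficient of variation of 0.0230 in edgeR. The deleted gene, mpkA (AN5666), had 6 and 3 reads in the deletion libraries against 6993 and 6437 in the parental libraries, as the labels require. Much of the transcriptome differed: 72.2% of the 10505 genes tested passed a q-value of 0.05 in the authors' deposited table. Those lower in the deletion strain were 35.9% of the genes tested, and those higher were 36.3%. In bulk RNA, fewer cells of one kind and less RNA per cell cannot be told apart.

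The family spanned a wide range of levels. Levels are given as RPKM, with the gene span in the tables as the length and the reads on genes as the depth, which allows genes of different length to be compared. The class III gene AN2523 was the most abundant, at 124 and 121 in the parental and 110 and 111 in the deletion libraries, above 91.7% and 91.3% of all genes detected. Its product's class is needed for normal tip growth in this species. The motor-domain genes followed, with parental levels of 61.5 and 59.9 for the class V gene AN6318 and 57.8 and 56.9 for the class VI gene AN6317. Next came the class I gene AN4566 (37.1 and 36.5), the class IV gene AN1555 (34.0 and 35.1) and the class II gene AN7032 (23.0 and 23.7).

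A pair of members stood far below the rest. The class VII gene AN1046 had parental levels of 1.34 and 1.43, and AN4367 had 1.39 and 1.29. Their ranges overlapped, whereas every other pair of neighbours in the parental order was separated in both libraries. In the deletion strain the order from AN2523 down to AN1046 was the same, and AN4367, at 0.168 and 0.150, was now 5.48-fold below AN1046. The highest member exceeded the lowest 91.2-fold in the parental strain and 694-fold without mpkA. The lowest there, AN4367, had only 18 and 16 reads in the deletion libraries, so these folds are imprecise. The order was the same with RefSeq gene lengths, in both strains.

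**Figure D1:**
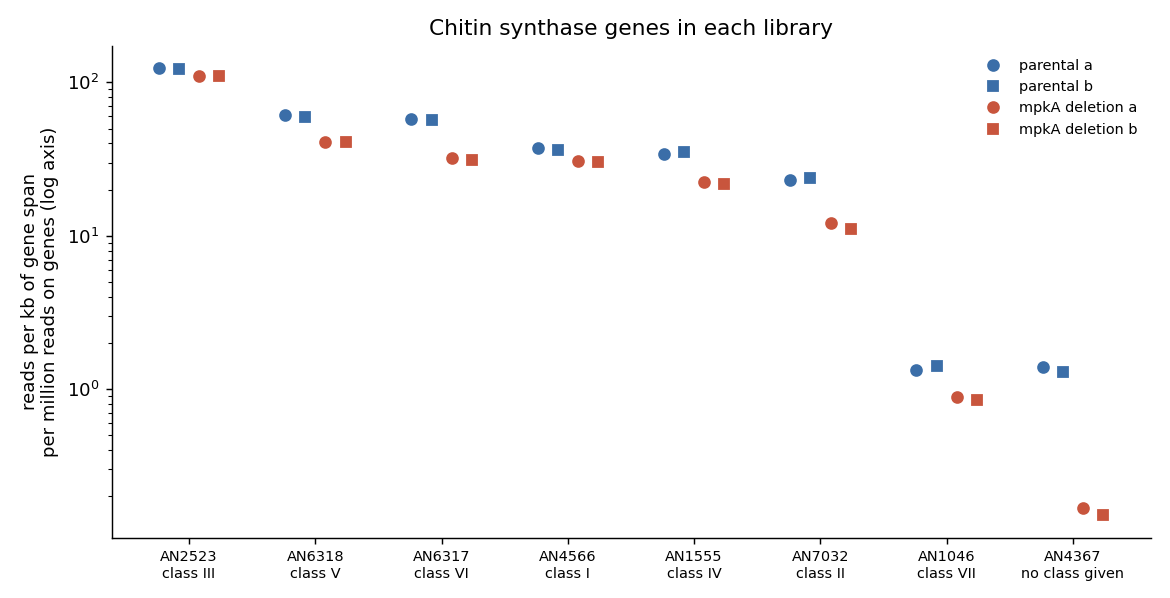
Levels of the 8 chitin synthase genes in each library, in RPKM (reads on a gene per kb of its span and per unit of library depth) on a log axis, ordered by the parental mean. Circles and squares are libraries a and b; 6 genes lie between 11.0 and 124, while AN1046 and AN4367 lie between 0.150 and 1.43, and on this scale the deletion libraries are below the parental ones for all 8.

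In the comparison of the strains, 5 of the 8 members were lower in the deletion strain at a q-value under 0.05, 0 were higher and 3 were not called in the authors' deposited table, against a background of 35.9% of all genes tested called lower. AN4367 fell 7.27-fold, the class II gene 1.74-fold, the class VI gene 1.56-fold, the class IV gene 1.35-fold and the class V gene 1.28-fold. The genes not called were the class I, III and VII genes. The median log2 change of the 8 members was -0.44, beside -0.01 over all genes tested. Only AN4367 changed by at least 2-fold, where 18.1% of all genes tested were called and at least 2-fold lower.

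On the recovered reads, edgeR's quasi-likelihood test with Benjamini-Hochberg adjustment over 9338 genes called 7 members lower and 0 higher, where 44% of genes were called lower. It added the class I and class VII genes to the 5. At an unadjusted p under 0.05, 0 members were higher in the authors' table, in edgeR and in DESeq2, but edgeR with DESeq2 size factors called the class III gene higher (adjusted p = 0.0259). In normalized reads, 7 members had both deletion libraries below both parental ones, which 44.7% of the genes tested also had. The class III gene was the exception, with both deletion libraries above, as in 43% of genes. Divided by the library totals alone, without that scaling, all 8 had both deletion libraries below, as in 54.3% of genes, and edgeR with library totals called all 8 lower, where 53.5% of genes were. A further setting used edgeR's likelihood ratio test with the coefficient of variation set to 0.2 for every gene. That spread was assumed after seeing the data, for cultures grown separately. There 2 members were called lower, AN4367 and the class II gene, where 26.7% of genes were.

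**Figure D2:**
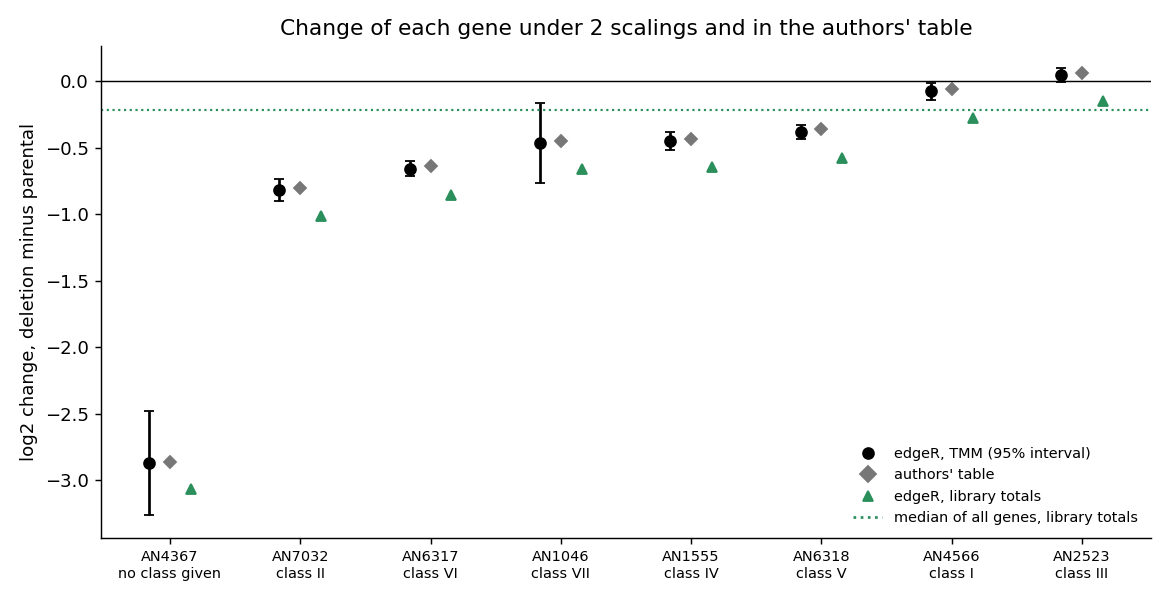
Log2 change of each chitin synthase gene, deletion minus parental. Black circles are edgeR with TMM scaling and bars its 95% intervals, grey diamonds the authors' table, green triangles edgeR scaled by library totals, and the dotted line the median of all genes under that scaling (-0.21). In edgeR with TMM scaling, AN4367 lies near -2.87 and 5 genes lie between -0.82 and -0.38. The class I and III genes lie within 0.08 of 0 except under library totals, where every gene lies lower.

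The class III gene AN2523, the most abundant member, kept a nearly equal level. It had 15315 and 14256 reads in the parental and 12406 and 12451 in the deletion libraries. After division by the size factors these are means of 13242 and 13860 in the authors' deposited table, a value 1.05-fold as high in the deletion strain (q = 0.0833). The edgeR log2 change was 0.05 (SE 0.03, 95% interval -0.002 to 0.10, adjusted p = 0.0916). Its direction depended on the scaling, with a log2 change of -0.15 (adjusted p = 3.85e-05 in edgeR) under library totals, where the median gene was at -0.21.

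The motor-domain genes AN6318 and AN6317 both fell, by unequal amounts. The class V gene AN6318 (positions 552615 to 559082, minus strand) had 13870 and 12787 parental reads against 8322 and 8340, with a log2 change of -0.38 (SE 0.03, edgeR adjusted p = 8.63e-10). The class VI gene AN6317 (positions 560746 to 566706, plus strand) had 12024 and 11197 reads against 6074 and 5908, with a log2 change of -0.66 (SE 0.03, edgeR adjusted p = 8.27e-13). Both deletion libraries lay below both parental libraries for each gene. In the authors' deposited table the q-values were 1.36e-22 for AN6318 and 5.58e-62 for AN6317.

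These genes stand next to each other on opposite strands, with their starts 1663 bp apart, on a chromosome the tables do not name. Per kilobase, AN6317 stood at 0.941 and 0.950 of AN6318 in the parental libraries and at 0.792 and 0.769 in the deletion libraries. The log2 ratio was -0.08 ± 0.01 in the parental strain and -0.36 ± 0.03 without mpkA (SD, n = 2), a difference of -0.28 (two-sided exact permutation p = 0.333, the smallest that 2 against 2 libraries can give). The 3' end of AN6318 overlaps AN6319 by 166 bp on the other strand, and reads there cannot be told apart without strand. AN6319 had few reads, 63 and 46 in the parental and 2 and 4 in the deletion libraries.

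Among the classes that in yeast act at septation and cell separation, the class II gene changed and the class I gene hardly did. The class II gene AN7032 (positions 1247890 to 1252065, plus strand) had 3355 and 3269 reads in the parental and 1603 and 1455 in the deletion libraries. That is a log2 change of -0.82 (SE 0.04, edgeR adjusted p = 1.00e-11), and q = 2.99e-43 in the authors' deposited table. Both deletion libraries were below both parental ones, and 26.6% of all genes tested had a lower log2 change. It was also one of the members still called with an assumed coefficient of variation of 0.2 (edgeR adjusted p = 0.0146).

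The class I gene AN4566 (positions 1642519 to 1646409, plus strand) had 5033 and 4691 parental reads against 3781 and 3721. Its means were 4354 and 4183 normalized reads, 1.04-fold lower in the deletion strain and not called in the authors' deposited table (q = 0.241). In edgeR the log2 change was -0.08 (SE 0.03, adjusted p = 0.033). The gene was called by limma (adjusted p = 0.0264) but not by DESeq2 (adjusted p = 0.261). In edgeR it was not called with DESeq2 size factors (adjusted p = 0.0969) or with no filter (adjusted p = 0.0664). Without 1 library the edgeR log2 change lay between -0.083 and -0.067, and under library totals it was -0.27 (edgeR adjusted p = 2.01e-07).

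The class IV gene AN1555 (positions 1154132 to 1158529, plus strand), of the class that holds yeast Chs3, had 5215 and 5095 parental reads against 3110 and 3037. Its log2 change was -0.45 (SE 0.03, edgeR adjusted p = 1.67e-09), with q = 1.09e-20 in the authors' deposited table. The strains did not overlap, and the 2 libraries of a strain differed by at most 0.05 on the log2 scale. The next gene before it, AN1554, is annotated for regulation of chitin synthase activity and is described with the regulators.

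The rare members had the largest SE in edgeR, and AN4367 had the largest change of the family. AN4367 (positions 2260494 to 2263866, minus strand) had 164 and 144 reads in the parental against 18 and 16 without mpkA. Its mean in the authors' deposited table fell from 138 to 19.0 normalized reads (q = 6.93e-22), and the edgeR log2 change was -2.87 (SE 0.20, adjusted p = 6.91e-10). From the pooled reads the exact binomial 95% interval of the ratio was 5.10 to 10.7, which covers counting error only. Of all genes tested, 6.83% had a lower log2 change.

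The putative class VII gene AN1046 (positions 1687243 to 1689685, minus strand) had 114 and 115 reads against 69 and 66. Its means of 103 and 75.3 normalized reads differed 1.36-fold and were not called in the authors' deposited table (q = 0.0812). The exact binomial 95% interval of that ratio was 1.10 to 1.70. In edgeR the log2 change was -0.46 (SE 0.15, adjusted p = 0.00984), about as large as that of the class IV gene but on far fewer reads. DESeq2 did not call it (adjusted p = 0.136), nor did edgeR with an assumed coefficient of variation of 0.2 (adjusted p = 0.251). It was called by limma (adjusted p = 0.0123) and by edgeR under the other scalings and with no filter. Without parental library b the edgeR log2 change was -0.41.

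Summed over the family, chitin synthase RNA was a smaller part of the deletion libraries. The 8 genes took 0.158% and 0.156% of reads on genes in the parental and 0.112% and 0.111% in the deletion libraries. Their summed level was 340 and 336 RPKM in the parental and 249 and 247 in the deletion libraries, with means of 338 ± 2.54 and 248 ± 1.46 (SD, n = 2) and a log2 difference of -0.45 (two-sided exact permutation p = 0.333, the smallest possible). With TMM-scaled totals the log2 difference was -0.25. The strains were separate on both scales.

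The make-up of the family shifted toward the class III gene. AN2523 made up 36.4% and 36.1% of the summed level in the parental libraries and 44.2% and 44.9% in the deletion libraries. The share of the class I gene went from 10.9 ± 0.0415% to 12.3 ± 0.0486% (SD, n = 2). The pair of motor-domain genes went from 34.9 ± 0.282% to 29.2 ± 0.0109%, and within it AN6317 from 17.0% to 12.8% and AN6318 from 18.0% to 16.4%. The class II gene went from 6.91% to 4.66% and the class IV gene from 10.2% to 8.90%. Shares do not depend on how libraries are scaled, and each of these differences had the smallest possible two-sided exact permutation p of 0.333.

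**Figure D3:**
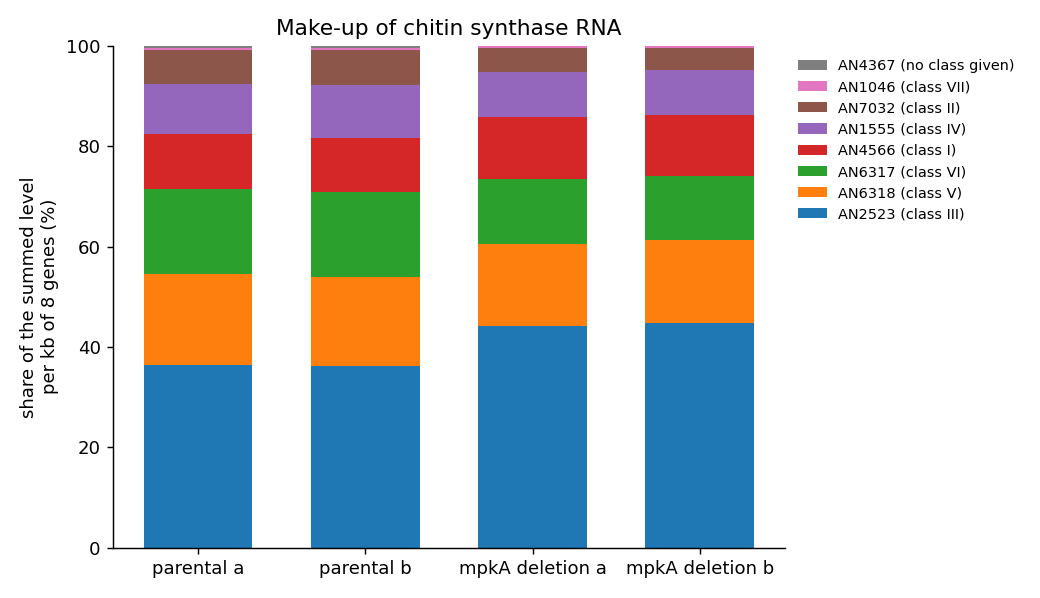
Share of each gene in the summed level per kb of the 8 chitin synthase genes, one bar per library, in percent. The class III gene AN2523 (bottom) takes 36.1% to 36.4% in the parental and 44.2% to 44.9% in the deletion libraries, while the class V and VI genes above it together take 34.7% to 35.1% and 29.2%.

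Genes next to the members showed no common direction. Of 14 neighbouring genes outside the family, the nearest in the tables on either side, 6 were called lower, 5 higher and 3 not called in the authors' deposited table. Over all genes tested, 35.9% were called lower and 36.3% higher. Both neighbours of the class II gene fell, AN7033 3.13-fold (q = 2.14e-55) and AN7031 1.88-fold (q = 1.15e-78), and all of these genes lie on the plus strand with gaps of 245 and 67 bp. Both neighbours of the class III gene rose, AN2522 1.28-fold (q = 1.49e-17) and AN10324, a putative neddylation protein, 1.21-fold (q = 3.78e-07). AN6319, which overlaps the class V gene, fell 14.5-fold (q = 4.59e-11). Under library totals AN10324 was not called (edgeR adjusted p = 0.114).

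The remaining neighbours were mixed as well. The gene after the class IV gene, AN10216, fell 1.78-fold (q = 4.28e-50). Beside the class I gene, AN4567 rose 1.33-fold (q = 0.0051), a call lost under library totals (edgeR adjusted p = 0.0608), and AN4565 fell 1.75-fold (q = 3.92e-21). Beside AN4367, AN4368 fell 1.78-fold (q = 0.0147) from 9162 bp away, while AN4366, 474 bp away, was not called with 27 and 26 against 29 and 27 reads (q = 0.442). Beside the class VII gene both neighbours rose, the putative heat shock protein gene AN1047 1.26-fold (q = 8.21e-26) and the RNA-binding protein gene AN1045 1.61-fold (q = 5.29e-45). AN6315, the nearest gene in the tables after AN6317, was not called (q = 0.0847). These values are from the authors' deposited table, apart from the reads.

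**Figure D4:**
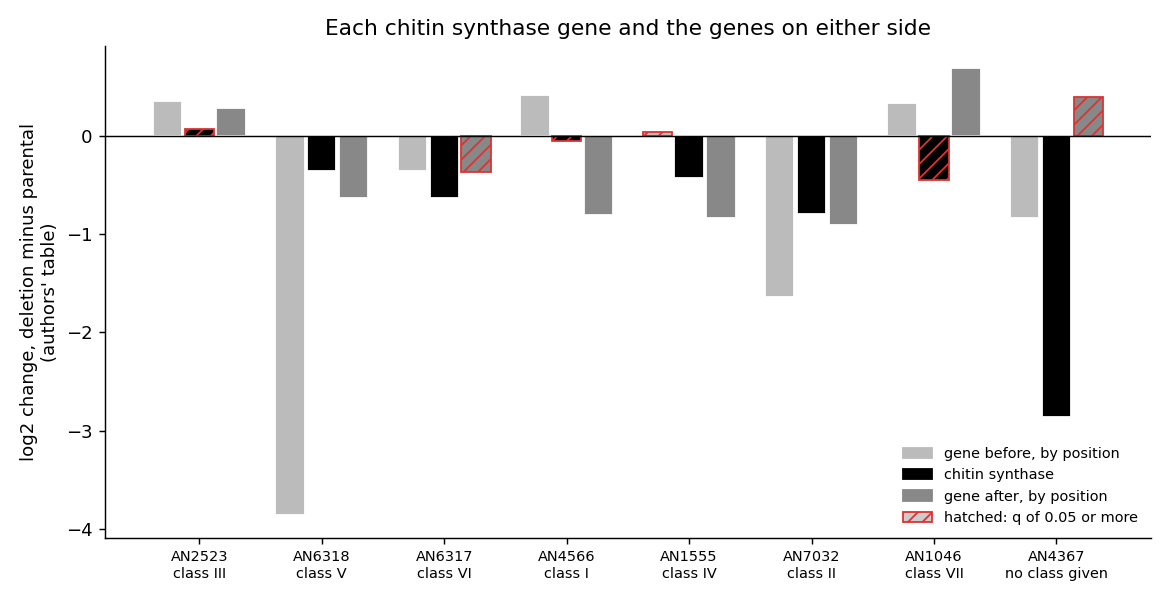
Log2 change in the authors' table, deletion minus parental, of each chitin synthase gene (black) and of the nearest genes in the tables before (light grey) and after it (dark grey) by position. Hatched bars have a q-value of 0.05 or more; AN6318 and AN6317 are each other's neighbour and appear in both groups, and only around AN7032 do the gene and both neighbours outside the family fall with a q-value under 0.05.

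The enzymes that supply UDP-N-acetylglucosamine, the substrate of chitin synthases, did not move together. Of 4 genes, 1 fell and 3 rose in the authors' deposited table, with a median log2 change of 0.26. That stands beside 35.9% of all genes tested called lower and 36.3% called higher. With an assumed coefficient of variation of 0.2 in edgeR, 0 of the 4 were called in either direction. Of the 9338 genes tested there, 1601 were called higher and 2494 (26.7%) lower. The first step, by the putative glutamine-fructose-6-phosphate transaminase AN10709, had 44775 and 41706 parental reads against 23730 and 22873, and fell 1.49-fold (q = 1.81e-70). The later steps rose. The acetyltransferase gene AN8706 rose 1.28-fold (q = 6.98e-15), the phosphoacetylglucosamine mutase gene AN4234 1.33-fold (q = 2.22e-10) and the pyrophosphorylase gene AN9094 1.12-fold (q = 1.20e-05) in the authors' deposited table. Under library totals AN9094 turned to a log2 change of -0.05 (edgeR adjusted p = 0.125), and the other 3 kept their direction.

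Of 3 genes annotated for regulation of chitin synthase activity, 2 rose and 1 was not called, where 36.3% of all genes tested were called higher. AN3445 had 7005 and 6465 parental reads against 6778 and 6646, a rise of 1.24-fold in the authors' deposited table (q = 1.36e-14). Its log2 change there was 0.31, against 0.10 under library totals (edgeR adjusted p = 0.00624), and its call was lost with an assumed coefficient of variation of 0.1 (edgeR adjusted p = 0.0623). AN8765 rose 1.13-fold there (q = 0.006), but under library totals its log2 change was -0.04 (edgeR adjusted p = 0.347). AN1554, 3457 bp from the class IV gene on the other strand, had 3725 and 3459 against 3088 and 2851 reads and was not called (q = 0.531), whereas under library totals it was called lower, with a log2 change of -0.17 (edgeR adjusted p = 0.000341). AN0799, outside the 8 members but annotated with a chitin synthase domain, had only 7 and 5 against 4 and 3 reads (q = 0.835).

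The putative chitin deacetylase genes, whose products turn chitin into chitosan, all fell. All 4 were called lower in the authors' deposited table, where 35.9% of all genes tested were. Their median log2 change was -2.48, beside -0.01 over all genes tested. AN1852 had 259 and 244 parental reads against 27 and 14 and fell 9.86-fold (q = 1.26e-40), and AN4823, with 67 and 81 against 5 and 11, fell 7.45-fold (q = 3.04e-11). On so few reads the edgeR folds of both moved with the library left out. That of AN4823 was 11.8 without deletion library b and 5.39 without deletion library a. That of AN1852 was 7.57 without deletion library b and 14.4 without deletion library a. AN9380, with 1727 and 1616 against 329 and 312, fell 4.19-fold (q = 2.39e-131). The most abundant, AN10309, had 2547 and 2392 against 1261 and 1110 and fell 1.67-fold (q = 6.65e-28). These 4 were also called with an assumed coefficient of variation of 0.2 in edgeR, where 26.7% of genes were called lower.

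**Figure D5:**
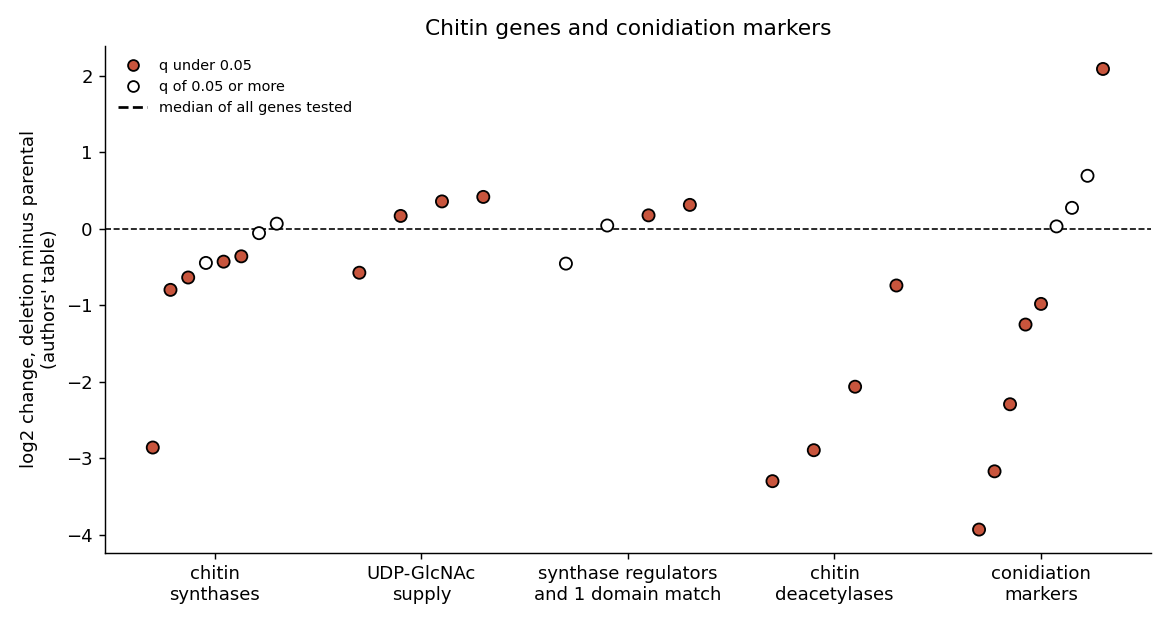
Log2 change in the authors' table, deletion minus parental, of 8 chitin synthases, 4 substrate supply enzymes, 4 genes of synthase regulation or with a synthase domain, 4 chitin deacetylases and 9 conidiation markers, sorted within each list. Filled points have a q-value under 0.05 and the dashed line is the median of all genes tested (-0.01); all 4 deacetylases lie below it and 3 of 4 supply enzymes above it.

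Markers of conidiophores and conidia did not share a direction. The class I and II genes are known in this species for roles in conidium formation as well as in hyphae. Of 9 conidiation markers, 5 were called lower, 1 higher and 3 not called in the authors' deposited table, with a median log2 change of -0.98. Of all genes tested, 35.9% were called lower and 72.2% were called in either direction. The regulator abaA had 1325 and 1214 parental reads against 114 and 112, and brlA, which acts upstream of it, 94 and 64 against 31 and 22. The conidial laccase gene yA went the other way, with 119 and 101 against 386 and 365 reads. Summed over the 9 markers there were 62.3 and 58.2 CPM in the parental and 25.0 and 23.7 in the deletion libraries, and none was at 0 in both libraries of a strain. Most of that summed difference was abaA. The other 8 markers were summed apart after seeing the data. They came to 24.3 and 21.5 CPM in the parental and 21.4 and 20.2 in the deletion libraries. That sum does not mean that these markers were unchanged, since the rise of yA offset falls of others. In the authors' deposited table, the pigment gene pksP fell 1.98-fold (q = 3.05e-10) and the hydrophobin gene rodA 4.91-fold (q = 4.18e-18). The part of the conidiation markers in the lower levels of the chitin synthase and deacetylase genes was not tested.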

How the data were processed

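RNA of 2 strains was sequenced in 4 libraries. Bowtie2, HTSeq and DESeq are named in the submitters' processing notes; no version, genome build or counting option was found in the labels. The signal values deposited by the authors are, for each gene, the reads divided by a size factor and averaged over both libraries of a strain. The ratio and the p-values and q-values are those of the authors' deposited comparison, per the file headers, and its fold was turned to deletion over parental strain. Left unused were 2 columns that no sample of the series accounts for.

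Since a strain was scaled differently in the 2 tables that list it, each gene gave 2 equations, from which the reads of each library were computed. Whole reads came out for 100% of 10930 genes within 0.25 reads (largest deviation 0.155 and 0.101 reads), a method tested on simulated data. No counts per library were given, so the authors' test is the main result, as the design provided. Added to it, edgeR 4.0.16 (R 4.3.3; TMM, filterByExpr, Benjamini-Hochberg over all genes tested) was run on the recovered reads, with SE taken as the log2 change over the square root of F. The alternatives were DESeq2 1.42.0, limma 3.58.1 (prior count 2), other scalings, no filter, leaving out each library, and an assumed coefficient of variation of 0.1 or 0.2. An assumed coefficient of variation was the same for every gene and used edgeR's likelihood ratio test in place of the quasi-likelihood test. Exact permutation tests used scipy 1.17.1.

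Named were the 8 members, their neighbours by RefSeq order (ASM1142v1, names only), 3 pathway lists found by identifier or annotation words, and conidiation markers. The members and lists were chosen with earlier results of these data known. Neither gene sequences nor protein sequences were used here.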

Additional observations from a re-analysis of the deposited data

How the results depend on the processing

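The number of members called lower was 5 in the authors' table, also at a q-value under 0.01, and 7 in edgeR on the recovered reads, where 44% of genes were called lower. It was 5 with DESeq2 (36.1% of genes called lower), 7 with limma (43.7%), 6 with DESeq2 size factors (43.2%), 6 with no filter (39.5%), 8 with library totals (53.5%) and 6 with a coefficient of variation of 0.1 (36.2%). It was 5 to 6 when 1 library was left out (41.4% to 42.6%), where a lone library is assumed to vary like the other strain's, and 2 with a coefficient of variation of 0.2 (26.7%). In edgeR that setting, added after seeing the data, also changed the test to the likelihood ratio test. It moved the genes called from 8075 to 4095, beside 7585 in the authors' table. The called genes of the 12 in the chitin pathway went from 10 to 4. Library totals turned AN2523 to -0.15, AN9094 to -0.048, AN8765 to -0.040 and AN1554, then called lower (edgeR adjusted p = 0.000341), to -0.17. They moved the genes called in edgeR from 3966 higher and 4109 lower to 3066 and 4997, beside 3810 and 3775 in the authors' table. Without 1 library, AN1554 ranged from -0.023 (without deletion library a) to 0.076. The cause of these changes was not tested. The summed level difference ranged from -0.45 to -0.44 and the AN6317 to AN6318 difference from -0.30 to -0.26 without 1 library. RefSeq lengths gave -0.46 for the sum. Coding lengths were not run. AN4367 and AN1046 are limited by depth, with at most 164 reads per library. No paired analysis was possible because the recovered libraries carry no replicate number.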
